A study of Mus musculus with 9 samples.

Results

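Astrocyte-marker droplets were examined in brains of mice with EP ZFTA-RELA tumors, a model of supratentorial ependymoma driven by the ZFTA-RELA fusion, and in control brains. A droplet was a member when it held at least 1 UMI, that is 1 counted RNA molecule, of at least 4 of the 8 genes Aqp4, Gja1, Ntsr2, Slc4a4, Agt, Itih3, Mertk and Slc1a2. It also had to hold 0 UMIs of the luciferase, IRES and fusion sequences of the tumor allele and of the cell cycle genes Mki67 and Top2a, with Malat1 below 5% of its UMIs. The candidates were the 10000 barcodes with most UMIs in each library that had 200 to 6000 genes and under 15% mitochondrial UMIs. Of 64617 such kept droplets, 2399 were members, 1676 in tumors and 723 in controls.

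The tumor group was 5 mice of genotype NestinCreERT2;Fus1, and the control group was 4 mice of genotype NestinCreERT2;TdT. All were 6 to 8 weeks old and all carried NestinCreERT2, a tamoxifen-dependent Cre under Nestin control. In the tumor mice this Cre acts in embryonic radial glia, which also give rise to astrocytes, and turns on the fusion together with an IRES-luciferase cassette. By the labels the controls carried a TdTomato reporter in place of the fusion, so genotype and reporter cannot be told apart. The study also shows TdTomato signal in tumor-bearing mice, although no tumor library here held reporter UMIs. It describes dissecting tumors by that signal, with matching regions of control brain, so dissected tissue cannot be told apart from genotype either. The fusion allele was made in C57BL/6J embryonic stem cells and its line was bred to C57BL/6J, while the background of the profiled crosses was not given in the sources used here. Dissociated tissue was cleared on Percoll, stained with DAPI and an antibody to the erythroid antigen Ter119, sorted, and profiled by 10x 5′ single-cell RNA sequencing, with 1 library per mouse. The study's methods also name an antibody to the leukocyte antigen CD45 for its single-cell samples, which the labels of these libraries do not, and whether these brains were gated on it was not given in the sources used here.

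Astrocytes clear glutamate and potassium from the extracellular space, supply neurons with metabolites and antioxidants, and cover vessels with endfeet that carry the water channel Aqp4. After injury or near a tumor they can enter reactive states, in which intermediate filament, acute phase and antigen presentation genes are known to rise. Adult astrocytes share many genes with radial glia, the cells in which the fusion was switched on.

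Libraries held 75222 to 86516 barcodes in controls and 9001 to 26341 in tumors, with medians of 1081 to 2029 and 746 to 1572 UMIs per barcode. The fusion allele was checked first. Luciferase, IRES or fusion UMIs were found in 2.71, 21.7, 2.24, 58.7 and 20.8% of kept droplets of tumor replicates 1 to 5, and in 0 to 0.224% of those of the controls. Reporter UMIs were found in all 4 controls and in no tumor library. In the controls, 98.0 to 99.9% of all kept droplets held UMIs of enough neuron genes to meet a neuron rule built in the same way. In the tumors that share was 49.8, 31.5, 14.8, 0.740 and 8.31%. Because of this difference, the tumor-control change in members was also read against that in the 3000 droplets with the fewest UMIs of the same library. These low-UMI droplets were not shown to be empty, since no barcode held under 468 UMIs and their medians were 691 to 1338 UMIs in controls and 559 to 649 in tumors. The 3000 droplets were a smaller part of every control library than of any tumor library. The smallest UMI count was 500 in every tumor library and 468 to 517 in controls. This unlike reference cannot be told apart from genotype. In tumor replicate 3, which had fewer barcodes than the 10000 considered, 1853 of the 3000 were also kept droplets and 40 were members, with 1.34% of the UMIs. In the other 8 libraries none was a member. Across the 28 pairs of libraries whose barcodes could be compared, no member barcode was shared.

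The controls held 63, 272, 167 and 221 members (replicates 1 to 4), and the tumors held 403, 44, 337, 319 and 573 (replicates 1 to 5). Members were 0.775, 3.66, 2.60 and 3.09% of kept droplets in controls and 14.2, 0.739, 5.03, 3.19 and 5.73% in tumors. The groups overlapped, since tumor replicates 1, 3 and 5 lay above every control and tumor replicate 2 lay below every control. Tumors averaged 5.77% ± 5.07 (SD, n = 5) and controls 2.53% ± 1.25 (SD, n = 4), which is 3.24 percentage points apart (exact permutation test, two-sided, p = 0.222).

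Median UMI counts of members were 1777, 2997, 2687 and 3651 in controls and 2167, 2837, 1044, 3839 and 2105 in tumors, and overlapped. When each kept droplet was thinned to 1000 UMIs, with shallower droplets left out, 0.209, 0.135, 0.280 and 0.112% qualified in controls and 9.16, 0.370, 4.78, 1.02 and 3.28% in tumors. All 5 tumors then lay above all 4 controls, 3.54 percentage points apart on average (exact permutation test, two-sided, p = 0.0159, and no smaller p can arise from 5 against 4 mice). The unthinned difference depended on the Malat1 limit, which removed 156, 405, 320 and 406 otherwise qualifying droplets in controls and 156, 64, 103, 21 and 180 in tumors. Without that limit the mean unthinned shares were 0.755 percentage points apart (exact permutation test, two-sided, p = 1). Thinning left out no control droplet, and it reduced the droplets considered to 2512 of 2845 in tumor replicate 1 and to 2508 of 6698 in tumor replicate 3. The unthinned shares leave out droplets with a UMI of the tumor allele. For the thinned shares the exclusions and the Malat1 limit were applied to the thinned counts. A tumor droplet that lost its tumor allele or cell cycle UMIs on thinning could therefore qualify, and the part of such droplets was not tested. All are shares of a sorted and size-limited set of droplets, not of the tissue.

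**Figure D1:**
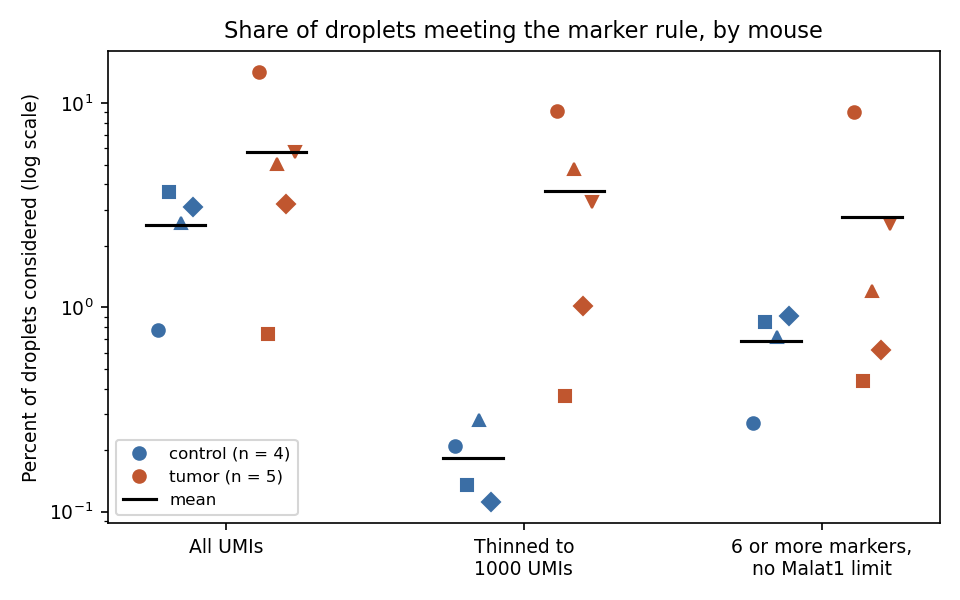
Percent of droplets that met the marker rule (y axis, log scale) in each of 4 control (blue) and 5 tumor (orange) mice, with all UMIs, after thinning to 1000 UMIs, and for droplets with at least 6 markers and no Malat1 limit. Bars mark group means. The groups overlap in the first and last columns, and do not overlap after thinning.

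The 8 marker genes chose the members, so their levels are a description. Slc1a2, the main glutamate transporter of astrocytes, had a UMI in 93.2 to 100% of members, but also in 83.0 to 94.9% of the other kept droplets of controls and 48.2 to 86.2% of those of tumors. Gja1, which encodes the gap junction protein connexin 43, had a UMI in 60.3 to 65.1% of control members and 68.2 to 79.2% of tumor members. Its share in the other kept droplets was 10.3 to 18.4% and 10.6 to 21.0%. Agt, the angiotensinogen gene, was the most uneven marker among tumors, with 73.7, 20.5, 16.9, 22.3 and 66.5% of members.

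The label was checked against 50 other astrocyte genes that the rule did not use, the held-out astrocyte genes. Their summed level in control members was 16438, 16174, 19403 and 14997 counts per 1000000 UMIs (CPM), close to the 12934 to 13682 CPM of low-UMI droplets of the same libraries. In tumor members it was 79902, 63985, 82538, 96177 and 64388 CPM, against 22649 to 42587 CPM in low-UMI droplets. Only 4 to 18 of the 50 genes were at least 2-fold above the other kept droplets in a control, while 35 to 48 were in a tumor. Against low-UMI droplets, those numbers were 0 to 9 in controls and 23 to 42 in tumors. Control members thus carried astrocyte markers without the wider astrocyte profile, and the name astrocyte is used here for the members of the tumors alone. It is a label from markers, and whether these members include tumor cells was not tested. In tumor replicate 4, droplets that passed the marker and Malat1 limits with a tumor allele UMI outnumbered members, 480 against 319.

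Genes of other cell types were read in the same droplets. The summed level of 10 neuron genes was 7837 to 9745 CPM in control members, near the 7749 to 8304 CPM of low-UMI droplets, and 257 to 2749 CPM in tumor members. The neuron rule was also met by 96.8 to 100% of control members and by 30.8, 25.0, 6.23, 0 and 5.76% of tumor members. Microglial genes summed to 1670 to 2284 CPM in control members and 2005 to 5966 CPM in tumor members. Low-UMI droplets held 337 to 386 CPM in controls and 697 to 4666 CPM in tumors, and members lay above them in 8 of the 9 mice. The other kept droplets held 488 to 570 CPM in controls and 2568 to 8612 CPM in tumors. Hemoglobin and other erythroid genes ranged from 11.7 CPM in members of tumor replicate 1 to 38045 CPM in those of tumor replicate 3, where all other kept droplets held 171372 CPM. Ependymal genes, which mark the ciliated lining of the ventricles, summed to 69.8 to 281 CPM in control members and to 401, 2275, 93.4, 172 and 301 CPM in tumor members, against 62.2 to 98.3 CPM in low-UMI droplets. Of 7 tested, 1, Rarres2, was higher in tumor than in control members. Endothelial genes summed to 71.2 to 464 CPM in control and 79.0 to 2434 CPM in tumor members, and macrophage genes to 36.7 to 152 and 116 to 1366 CPM. Oligodendrocyte genes summed to 3734 to 4453 and 564 to 4697 CPM, and genes of their precursors to 128 to 228 and 227 to 853 CPM. Choroid plexus genes summed to 1322 to 2202 and 7.23 to 320 CPM. Mitochondrial UMIs had medians of 12.5 to 12.8% in control members and 3.13 to 10.9% in tumor members. No doublet caller was run, and the part of doublets and free RNA in each result was not tested.

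The profile followed the number of markers. Droplets with 0 or 1 marker held 11447 to 13491 CPM of held-out astrocyte genes in controls. In tumor replicates 1 to 5 they held 19740, 33773, 22683, 58290 and 22958 CPM, so tumor replicate 4 was already high without the markers. Just outside the rule, droplets with 3 markers held 13554 to 15954 CPM of held-out astrocyte genes in controls and 29726 to 66858 CPM in tumors. Just inside it, droplets with 4 markers held 14754 to 18589 CPM and 40814 to 84854 CPM. Most control members, 128 to 228 droplets in replicates 2 to 4 and 56 in replicate 1, had exactly 4 markers.

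**Figure D2:**
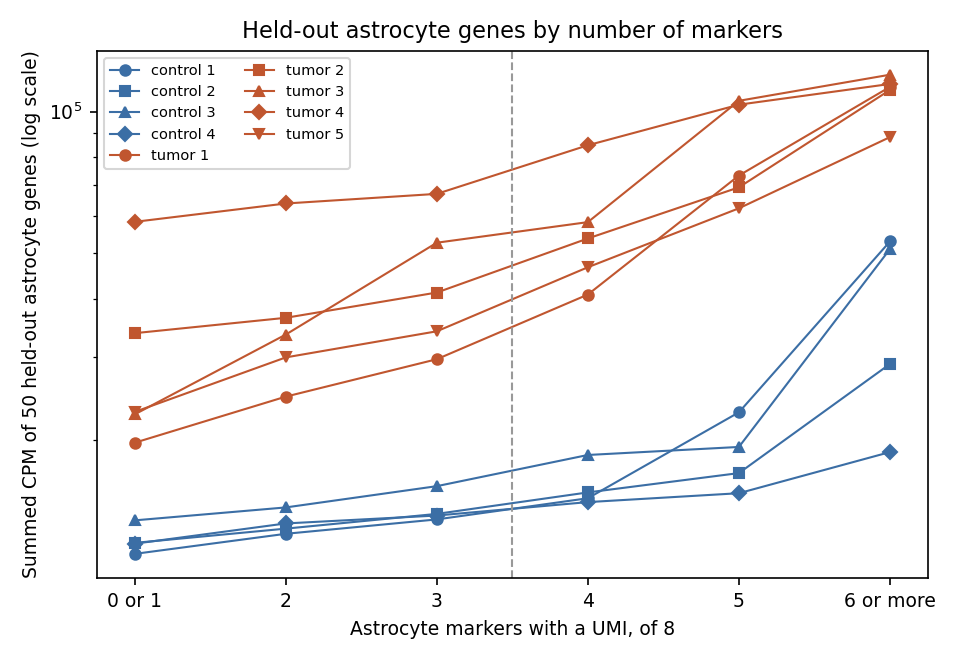
Summed level of the 50 held-out astrocyte genes (CPM, log scale) in kept droplets with Malat1 below 5% of UMIs, by number of the 8 markers with a UMI, with 1 line per mouse. The dashed line is the rule's threshold of 4 markers, and at 4 markers control lines lie between 14754 and 18589 CPM and tumor lines between 40814 and 84854 CPM.

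For a like comparison, a second set was formed after these values had been seen, of droplets with at least 6 of the 8 markers and no limit on Malat1. It held 22, 63, 46 and 65 droplets in controls and 257, 26, 81, 62 and 256 in tumors. Held-out astrocyte genes summed to 37262, 32193, 41003 and 27682 CPM in these control droplets and to 106609, 91728, 105128, 113899 and 86138 CPM in the tumor droplets. In each control, 45 or 46 of the 50 genes were at least 2-fold above the other kept droplets, so the 6-marker droplets carried the wider astrocyte genes in both groups. The neuron rule was also met by 18 of 22, 62 of 63, 45 of 46 and 65 of 65 of them in controls and by 79 of 257, 6 of 26, 4 of 81, 0 of 62 and 13 of 256 in tumors. Neuron genes remained at 4790 to 8337 CPM in the control droplets against 186 to 2204 CPM in the tumor droplets. Malat1 took a median of 7.83 to 10.1% of UMIs in the control droplets, which lie mostly beyond the rule's limit, and 2.29 to 8.36% in the tumor droplets.

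Tumor and control members were compared over summed UMI counts per mouse with edgeR's quasi-likelihood test, calling genes at a Benjamini-Hochberg adjusted p under 0.05. The filter on low counts could be met by the tumor mice alone. A gene near 0 in controls was therefore tested only where tumors were high, so counts of rises in lists are partly set by the filter. Of 9845 genes tested, 39.2% were called, 19.9% higher and 19.3% lower in tumor members. Because control members lacked the astrocyte profile, droplet content and cell state cannot be told apart in that difference. Gene groups were therefore also counted in the 6-marker droplets, where 28.1% of 5209 genes were called (14.8% higher, 13.2% lower), and in the difference between the tumor-control change of members and that of low-UMI droplets. The last comparison had mouse as a term and called 22.3% of 9845 genes (10.2% higher, 12.1% lower). Its split of 1001 higher and 1196 lower calls became 309 and 868 without control replicate 4, 608 and 1338 without tumor replicate 1, 650 and 1334 without tumor replicate 3, 609 and 1366 without tumor replicate 4 and 692 and 1411 without tumor replicate 5. Without control replicate 2 or 3 it was 625 and 801 or 648 and 765. The same comparison for 6-marker droplets called 25.1% of 5209 genes (10.3% higher, 14.8% lower). Counts given for lists below are to be read beside these shares, and a count near its share is no result about the list. Of 5198 genes in both fits, 1307 were called in members and in 6-marker droplets in the same direction, which is 56.3% of the calls of the former and 89.6% of those of the latter, and 0 were called in opposite directions.

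Held-out astrocyte genes were higher in tumor members than in control members almost throughout. Of 49 tested, 46 rose and 0 fell, with a median log2 difference of 2.24 against 0.04 for all genes. In 6-marker droplets 30 rose and 0 fell (median 1.24, all genes 0.04). Against low-UMI droplets 35 rose and 0 fell in members (median 1.17, all genes -0.05). In 6-marker droplets against low-UMI droplets, however, 9 rose and 7 fell, and the median was 0.07 against -0.04 for all genes.

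The members of the list that rose beyond the low-UMI droplets in this last comparison were Aldoc, Apoe, Cst3, Mt3, Sparcl1, Id4, Pla2g7, Dbi and Fxyd1. Aldoc, the glycolytic enzyme aldolase C, was at 464, 531, 569 and 416 CPM in control members and 2651, 1507, 3299, 2156 and 2631 CPM in tumor members. Every tumor lay above every control. Lack of overlap is a description here and below, since the share of all genes without overlap is not given. The log2 difference was 2.34 ± 0.26 (SE) in members (edgeR, adjusted p = 6.64e-05), 2.29 ± 0.28 in 6-marker droplets (edgeR, adjusted p = 8.83e-05) and 1.04 ± 0.23 in 6-marker droplets beyond low-UMI droplets (edgeR, adjusted p = 0.00221).

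Apoe, the main lipid carrier made by astrocytes, was at 3692, 3130, 4144 and 3137 CPM in control members and at 15419, 23723, 16758, 32971 and 17196 CPM in tumor members. It rose by 2.63 ± 0.29 on the log2 scale in members (edgeR, adjusted p = 6.65e-05) and by 0.72 ± 0.26 in 6-marker droplets beyond low-UMI droplets (edgeR, adjusted p = 0.0447). The latter call was lost without any 1 control or without tumor replicate 1, 2 or 5 (edgeR, adjusted p = 0.0604 to 0.147). Sparcl1, a secreted matrix protein that promotes synapses, was at 1037 to 1210 CPM in control members and at 3550, 1733, 3191, 538 and 2882 CPM in tumor members, so tumor replicate 4 lay below the controls. Its log2 difference in members was 1.17 ± 0.42 (edgeR, adjusted p = 0.04), and the call was lost without any 1 control or without tumor replicate 1, 3 or 5 (edgeR, adjusted p = 0.069 to 0.102).

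Genes that fell in the same comparison included Fgfr3, Bcan, Slc6a11, Slc7a10, Kcnj10 and Sox9, among them transporters and channels of mature astrocytes. A fall beyond low-UMI droplets, here and below, is relative to their change and need not be a lower level in 6-marker droplets. Low-UMI droplets themselves held 22649 to 42587 CPM of held-out astrocyte genes in tumors and 12934 to 13682 CPM in controls. Slc6a11 encodes the GABA transporter GAT-3. It measured 101, 100.4, 162 and 109 CPM in control members and 264, 102, 298, 307 and 346 CPM in tumor members, and 805, 532, 921 and 515 CPM in control 6-marker droplets against 519, 239, 394, 442 and 560 CPM in those of tumors. The log2 difference was therefore 1.21 ± 0.31 in members (edgeR, adjusted p = 0.00785) and -0.52 ± 0.29 in 6-marker droplets (edgeR, adjusted p = 0.186), the opposite sign. Beyond low-UMI droplets the 6-marker value was -0.97 ± 0.25 (edgeR, adjusted p = 0.00636, and 0.0807 without control replicate 3), while that of members was 0.82 ± 0.23 (edgeR, adjusted p = 0.013). The call in members was lost without control replicate 2 or 4 or tumor replicate 1 or 3 (edgeR, adjusted p = 0.0583 to 0.0858).

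Kcnj10, the potassium channel Kir4.1, was at 360, 184, 239 and 215 CPM in control 6-marker droplets and at 108, 343, 190, 352 and 187 CPM in those of tumors, so that 4 of 5 tumors lay within the control range and tumor replicate 1 lay below it. Its difference was 1.02 ± 0.29 in members (edgeR, adjusted p = 0.014), 0.05 ± 0.34 in 6-marker droplets (edgeR, adjusted p = 0.94) and -0.97 ± 0.25 beyond low-UMI droplets in the latter (edgeR, adjusted p = 0.00716). The call in members was lost without control replicate 2 or 4 (edgeR, adjusted p = 0.0539 and 0.0588), and the last without control replicate 3 or 4 (edgeR, adjusted p = 0.0514 and 0.0607). Slc1a3, the glutamate transporter GLAST, was at 239 to 364 CPM in control members and at 1250, 1022, 1880, 705 and 985 CPM in tumor members (log2 difference 2.05 ± 0.29, edgeR, adjusted p = 0.000231). In 6-marker droplets it was at 956 to 1830 CPM in controls and 954 to 3421 CPM in tumors (log2 difference 0.71 ± 0.34, edgeR, adjusted p = 0.131). Low-UMI droplets held 164 to 181 CPM in controls and 291 to 588 CPM in tumors. Beyond them Slc1a3 rose by 0.94 ± 0.18 in members (edgeR, adjusted p = 0.000795), and in 6-marker droplets the value was -0.51 ± 0.25 (edgeR, adjusted p = 0.135).

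These functions were also counted as lists. Of 14 tested genes of glutamate, GABA and glycine handling, 9 rose and 1 fell in members, 6 rose and 1 fell in members beyond low-UMI droplets, 4 rose and 1 fell in 6-marker droplets, and 0 rose and 4 fell in 6-marker droplets beyond low-UMI droplets. The last were Slc6a11, Slc38a3, Slc7a10 and Grm5. Of 11 tested genes of potassium and water handling and of gap junctions, 8 rose and 1, Slc12a2, fell in members. Of 10 tested in 6-marker droplets, 5 rose and 1, Kcnj16, fell, and beyond low-UMI droplets 0 rose and Kcnj10 was among those that fell. Glul, the glutamine synthetase gene, was at 371 to 465 CPM in control members and at 757, 751, 1995, 421 and 610 CPM in tumor members, with tumor replicate 4 inside the control range. Its call (log2 difference 1.13 ± 0.38, edgeR, adjusted p = 0.0306) was lost without any 1 control (edgeR, adjusted p = 0.0664 to 0.0852). Low-UMI droplets held 300 to 378 CPM of it in controls and 302 to 1084 CPM in tumors, and beyond them its value was 0.45 ± 0.18 in members (edgeR, adjusted p = 0.0714) and 0.40 ± 0.24 in 6-marker droplets (edgeR, adjusted p = 0.22).

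**Figure D3:**
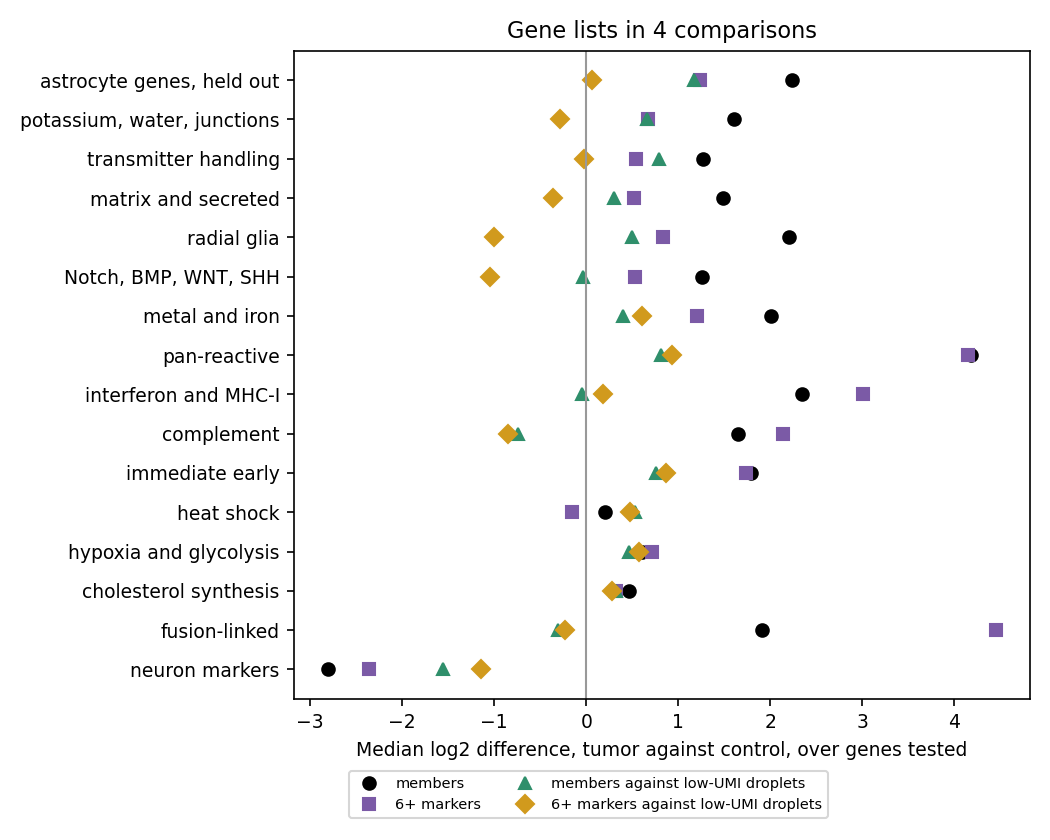
Median log2 difference (tumor against control) over the tested genes of 16 lists, in members, in droplets with 6 or more markers, and in each beyond the change of low-UMI droplets. Astrocyte genes have medians of 2.24, 1.24, 1.17 and 0.07, and neuron genes lie below 0 in all 4 comparisons.

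Genes that mark reactive astrocytes in general, the pan-reactive list, were higher in tumor members where they could be tested. Of 13 genes, 9 could be tested in members and all 9 rose (median log2 difference 4.18, all genes 0.04). The whole list summed to 96.9 to 179 CPM in control members, and genes low there could pass the filter through the tumors alone. The count of rises is therefore a description. In 6-marker droplets 4 could be tested. Hspb1, Vim and Gfap rose, as did Serpina3n, which passed the filter mainly through the tumors. Low-UMI droplets of the tumors held more of the same RNA, and beyond them Serpina3n and Vim rose in members and Serpina3n alone in 6-marker droplets.

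Serpina3n encodes a secreted protease inhibitor of the acute phase. It was at 8.43, 5.34, 7.91 and 4.73 CPM in control members and at 115, 119, 36.1, 138 and 128 CPM in tumor members. Low-UMI droplets held 6.99 to 10.1 CPM in controls and 49.6, 14.6, 10.1, 30.8 and 42.0 CPM in tumors. The log2 difference was 4.18 ± 0.46 in members (edgeR, adjusted p = 6.74e-05), 2.56 ± 0.47 beyond low-UMI droplets (edgeR, adjusted p = 0.000653) and 3.82 ± 0.81 in 6-marker droplets beyond them (edgeR, adjusted p = 0.00159). In control members 3 UMIs would correspond to 3.20 to 25.3 CPM, so the gene could pass the filter through the tumors alone. In the 6-marker droplets of control replicates 1, 2 and 3 it was at 0 UMIs. These differences rest on few control counts and are a description. Without tumor replicate 1, 2, 4 or 5 the gene was too low in 6-marker droplets to be tested.

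Gfap and Vim encode intermediate filaments. Gfap was at 59.0, 52.3, 47.5 and 72.2 CPM in control members and 612, 1242, 534, 1675 and 502 CPM in tumor members (log2 difference 4.01 ± 0.42, edgeR, adjusted p = 5.25e-05). Low-UMI droplets held 43.9 to 62.9 CPM in controls and 214 to 1169 CPM in tumors, and beyond them the difference was 0.82 ± 0.33 (edgeR, adjusted p = 0.0802). Vim was at 11.9 to 46.1 CPM in control members and at 298, 1140, 613, 640 and 166 CPM in tumor members. Its difference beyond low-UMI droplets was 1.19 ± 0.32 in members (edgeR, adjusted p = 0.0113, and 0.0732 without control replicate 3) and 0.81 ± 0.47 in 6-marker droplets (edgeR, adjusted p = 0.205).

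Lists of genes linked to inflammatory and ischemic forms of reactivity gave few testable genes. Of 12 genes first described after lipopolysaccharide, 9 were tested and 7 rose in members, with Serping1 alone rising beyond low-UMI droplets. In 6-marker droplets both genes tested, H2-D1 and Psmb8, rose, and 0 of 2 were called beyond low-UMI droplets. Of 13 genes described after ischemia, 5 were tested and 5 rose, with S100a10 alone rising beyond low-UMI droplets, and in 6-marker droplets S100a10 and Stat3, the 2 tested, rose. S100a10, an S100 family gene of this list, rose in members (1.84 ± 0.54, edgeR, adjusted p = 0.0159) and by 1.82 ± 0.46 in 6-marker droplets beyond low-UMI droplets (edgeR, adjusted p = 0.00609). The call in members was lost without control replicate 3 (edgeR, adjusted p = 0.0582).

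Metallothioneins, small proteins that bind zinc and copper, separated tumor from control members in all the comparisons made. Mt1 was at 919, 950, 1186 and 944 CPM in control members and 7072, 7445, 9445, 4120 and 7985 CPM in tumor members. The control level was that of the low-UMI droplets, 968 to 1050 CPM, whereas the low-UMI droplets of tumors held 3504, 1457, 3472, 1223 and 3876 CPM, below the members of the same mouse in every tumor. The log2 difference was 2.89 ± 0.27 in members (edgeR, adjusted p = 3.12e-05) and 2.89 ± 0.33 in 6-marker droplets (edgeR, adjusted p = 4.57e-05). Beyond low-UMI droplets it was 1.66 ± 0.24 (edgeR, adjusted p = 6.5e-05) and 1.58 ± 0.27 (edgeR, adjusted p = 0.000246).

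Mt2 behaved alike, at 177, 143, 235 and 141 CPM in control members and 1167, 2467, 2108, 955 and 1496 CPM in tumor members (log2 difference 3.27 ± 0.33, edgeR, adjusted p = 4.38e-05). Mt3, a metallothionein of brain that is also among the held-out astrocyte genes, was at 776, 850, 1147 and 879 CPM and at 3284, 3155, 5744, 4621 and 3388 CPM (log2 difference 2.18 ± 0.26, edgeR, adjusted p = 8.62e-05). Neither gene overlapped between groups, which is a description, since 39.2% of all 9845 genes tested were called. In 6-marker droplets beyond low-UMI droplets, Mt2 rose by 1.00 ± 0.26 (edgeR, adjusted p = 0.00721) and Mt3 by 1.57 ± 0.26 (edgeR, adjusted p = 0.00018).

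Of the 12 genes of the metal and iron list 8 rose in members, and beyond low-UMI droplets the 3 metallothioneins rose alone. Hmox1, heme oxygenase 1, Cp, the copper-carrying ferroxidase ceruloplasmin, and Slc30a10, a manganese exporter, had log2 differences of 3.31, 3.06 and 2.39 in members (edgeR, adjusted p = 0.000919, 0.00117 and 0.000148) and were not called beyond low-UMI droplets (edgeR, adjusted p = 0.645, 0.874 and 0.252). In 6-marker droplets Mt1, Mt2, Mt3 and Ftl1 rose of 8 tested, and beyond low-UMI droplets the 3 metallothioneins rose and Slc30a10 fell. Ftl1, the ferritin light chain, was at 371 to 475 CPM in control members and 1104 to 2280 CPM in tumor members (log2 difference 1.84 ± 0.26, edgeR, adjusted p = 0.000229), with a difference beyond low-UMI droplets of 0.24 ± 0.20 (edgeR, adjusted p = 0.424). Fth1, the heavy chain, had a log2 difference of 0.40 ± 0.27 (edgeR, adjusted p = 0.262) and of 0.20 ± 0.25 beyond low-UMI droplets (edgeR, adjusted p = 0.599).

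**Figure D4:**
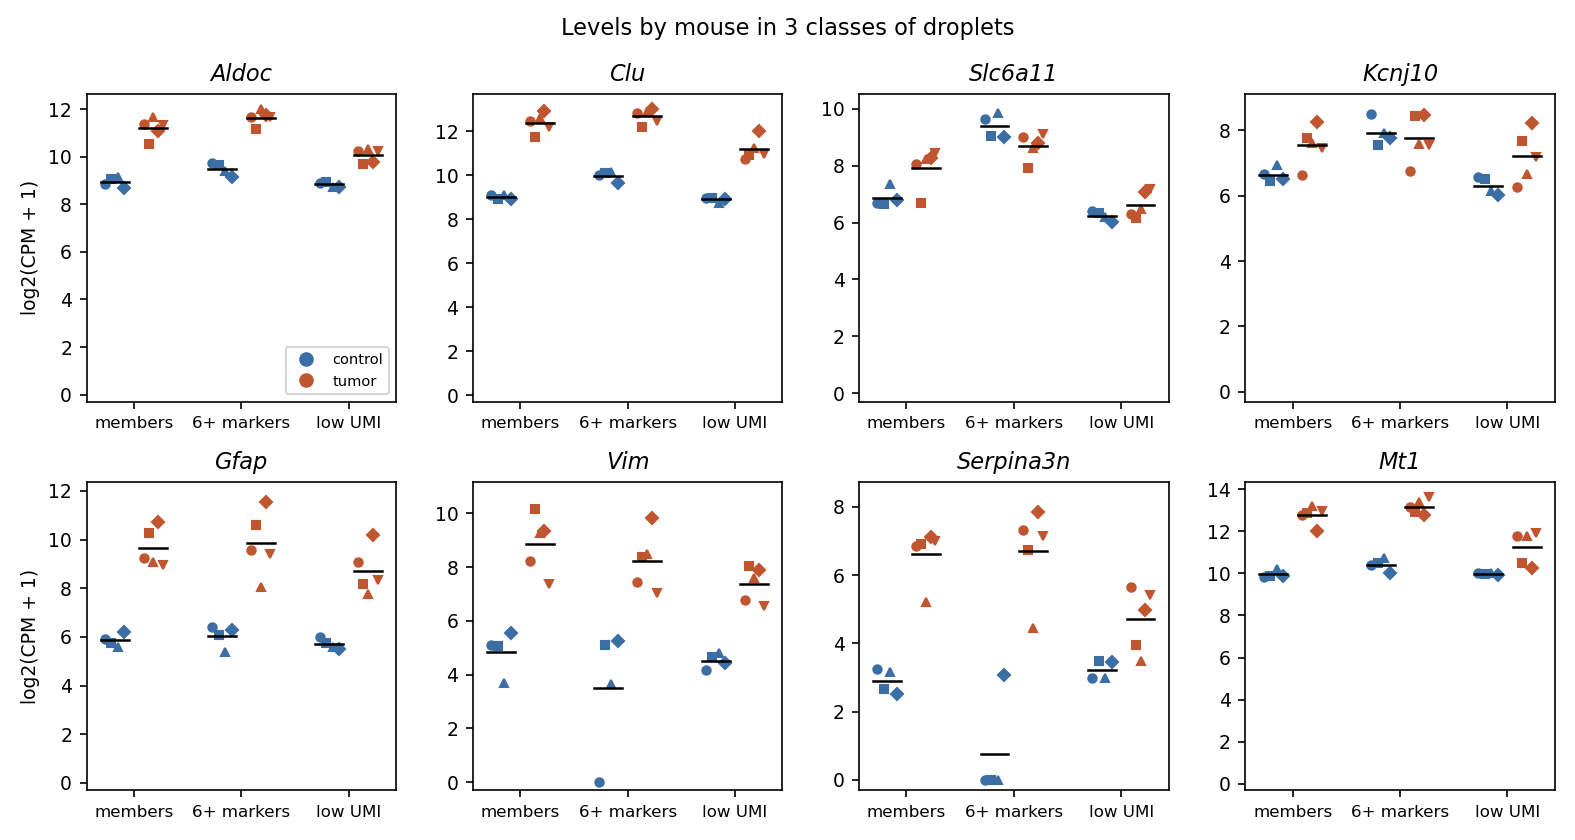
Levels of 8 genes as log2(CPM + 1) in members, in droplets with 6 or more markers and in low-UMI droplets, with 1 point per mouse (4 control in blue, 5 tumor in orange) and bars at group means. Serpina3n and Mt1 are higher in tumor members than in low-UMI droplets of the same tumors, and Slc6a11 is higher in control than in tumor droplets with 6 or more markers on average.

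Antigen presentation and interferon genes were higher in tumor members, and their level in low-UMI droplets moved with them. Of 16 tested of 18, all 16 rose in members (median log2 difference 2.35), and all 7 tested rose in 6-marker droplets. Here too, genes low in controls could be tested through the tumors alone. Beyond low-UMI droplets 1, Ifitm3, rose in members, with a list median of -0.04, and 0 of 7 were called in 6-marker droplets. H2-D1, a class I heavy chain, was at 101, 103, 29.7 and 41.4 CPM in control members and 294, 373, 287, 784 and 240 CPM in tumor members. Low-UMI droplets of the tumors held 81.6, 189, 210, 447 and 86.3 CPM, and the difference beyond them was 0.09 ± 0.29 (edgeR, adjusted p = 0.869). The Ifitm3 call was lost without control replicate 1, 3 or 4 or tumor replicate 1 or 5 (edgeR, adjusted p = 0.0525 to 0.138). Of 7 class II genes 3 were tested and H2-DMa rose, with 0 of 3 called beyond low-UMI droplets. None could be tested in 6-marker droplets.

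Of 7 complement genes tested 5 rose in members. C4b, a complement component that astrocytes express, was at 4.73 to 16.9 CPM in control members and 261, 226, 187, 249 and 158 CPM in tumor members (log2 difference 4.54 ± 0.33, edgeR, adjusted p = 8.67e-06). It rose beyond low-UMI droplets by 1.44 ± 0.40 (edgeR, adjusted p = 0.0132), a call lost without control replicate 2 or 4 (edgeR, adjusted p = 0.166 and 0.0618). C1qa, C1qb and C1qc, which are made by microglia, also rose in members but fell beyond low-UMI droplets. The C1qa call was lost without control replicate 1, 2 or 3 (edgeR, adjusted p = 0.0643 to 0.0855). In 6-marker droplets C4b and the 3 C1q genes all rose, and beyond low-UMI droplets 0 of the 4 were called, with C4b at 0.82 ± 0.47 (edgeR, adjusted p = 0.203) and C1qa at -0.88 ± 0.62 (edgeR, adjusted p = 0.304). C1qa was at 335 to 455 CPM in control members and 579 to 1846 CPM in tumor members, and at 21.2 to 163 CPM and 72.5 to 884 CPM in the 6-marker droplets. Control members already held more microglial RNA than control low-UMI droplets, at 1670 to 2284 against 337 to 386 CPM. All 8 microglial markers tested fell beyond low-UMI droplets in members, and 0 of 5 were called in 6-marker droplets. Ependymal genes went the other way, since 6 of 7 rose in members beyond low-UMI droplets (median log2 difference 2.44), as did Rarres2, the 1 gene tested, in 6-marker droplets. Against microglia 4 of 7 ependymal genes changed more in members. The part of ependymal RNA in the members' other differences was not tested.

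Immediate early genes, which respond within minutes to stimuli including tissue dissociation, were higher in tumor members. Of 16 tested 13 rose in members, 4 of 6 rose in 6-marker droplets, and beyond low-UMI droplets the counts were 7 of 16 and 3 of 6. Fos was at 33.7, 12.8, 7.91 and 20.1 CPM in control members and 108, 305, 516, 459 and 75.6 CPM in tumor members (log2 difference 4.22 ± 0.65, edgeR, adjusted p = 0.000421). In 6-marker droplets of tumors it was at 12.3, 284, 297, 371 and 45.3 CPM, so tumor replicate 1 lay among the controls at 4.19 to 42.4 CPM. Its call in 6-marker droplets beyond low-UMI droplets (edgeR, adjusted p = 0.0393) was lost without control replicate 2, 3 or 4 or tumor replicate 2 (edgeR, adjusted p = 0.05 to 0.301). Nfkbia, an inhibitor of NF-kB that NF-kB itself induces, was at 19.8 to 28.4 CPM in control members and 148 to 294 CPM in tumor members (log2 difference 3.15 ± 0.26, edgeR, adjusted p = 1.21e-05), and rose by 1.55 ± 0.44 in 6-marker droplets beyond low-UMI droplets (edgeR, adjusted p = 0.013, and 0.0601 and 0.0661 without control replicate 2 or 4).

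Heat shock genes had mixed signs. Bag3 and Hspb8 rose in members, and Hsp90aa1, Hsph1 and Hspa8 fell, of 10 tested. Of all genes 19.9% rose and 19.3% fell. The call of Hsp90aa1 was lost without any 1 control or without tumor replicate 1, 3, 4 or 5 (edgeR, adjusted p = 0.0542 to 0.102). Hspa8 was at 1283 to 1458 CPM in control members and 443 to 833 CPM in tumor members and fell by 1.16 ± 0.22 on the log2 scale (edgeR, adjusted p = 0.00129). Beyond low-UMI droplets its difference was 0.30 ± 0.18 (edgeR, adjusted p = 0.245). In 6-marker droplets Hspb8 rose and the same 3 genes fell, of 8. Beyond low-UMI droplets 0 fell in either set, Hspe1 and Hspa5 rose in members, and Hspe1, Hspa5 and Hspb8 rose in 6-marker droplets.

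Genes of radial glia and immature astrocytes rose in members, with 16 of 17 tested called higher and a median of 2.20. In 6-marker droplets 6 of 14 rose, namely Sox2, Vim, Fabp7, Id1, Id2 and Id3. Beyond low-UMI droplets the signs diverged, with 5 rising and Sox11 falling in members, and Id2 rising while 8 fell in 6-marker droplets. Those 8 were Sox2, Sox4, Sox11, Hes5, Egfr, Ptprz1, Pax6 and Ccnd2.

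Fabp7, a fatty acid binding protein of radial glia, was at 89.9 to 162 CPM in control members and at 74.3, 457, 1613, 3175 and 412 CPM in tumor members, so tumor replicate 1 lay below the controls. Low-UMI droplets of the tumors held 65.0, 379, 629, 1316 and 240 CPM. The log2 difference in members was 3.38 ± 0.84 (edgeR, adjusted p = 0.00639). Id2, a transcriptional regulator induced by BMP signals, was at 67.4, 114, 134 and 151 CPM in control members and 266, 282, 274, 316 and 285 CPM in tumor members, while low-UMI droplets held 105 to 131 CPM and 91.4 to 154 CPM. It rose in members (1.26 ± 0.22, edgeR, adjusted p = 0.00092) and beyond low-UMI droplets in 6-marker droplets (1.45 ± 0.27, edgeR, adjusted p = 0.000516).

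Hopx, a homeodomain protein of astrocytes and radial glia, was at 42.2 to 47.3 CPM in control members and at 101, 181, 398, 327 and 45.4 CPM in tumor members, with tumor replicate 5 inside the control range. Low-UMI droplets held 30.5 to 43.4 CPM in controls and 53.0, 48.8, 135, 93.6 and 29.9 CPM in tumors. It rose in members (2.26 ± 0.54, edgeR, adjusted p = 0.00527), beyond low-UMI droplets in members (1.17 ± 0.28, edgeR, adjusted p = 0.00564) and beyond low-UMI droplets in 6-marker droplets (1.95 ± 0.40, edgeR, adjusted p = 0.00126). Of the other telencephalic genes Mfge8 rose and Crym fell in members, of 7 tested, whereas Crym rose in 6-marker droplets beyond low-UMI droplets. Hes5, a Notch target, had opposite signs, with 1.26 ± 0.43 in members (edgeR, adjusted p = 0.0328) and -0.52 ± 0.42 in 6-marker droplets (edgeR, adjusted p = 0.375). Its call in members was lost without any 1 control, tumor replicate 3 or tumor replicate 5 (edgeR, adjusted p = 0.0644 to 0.0934). Of 17 tested genes of the Notch, BMP, WNT and SHH pathways 11 rose in members, and beyond low-UMI droplets Hey1 and Id3 rose and Notch1 and Smo fell. In 6-marker droplets Notch1, Smad1 and Id3 rose and Ptch1 fell, of 11 tested. Of these 11 beyond low-UMI droplets, 0 rose and 6, namely Notch1, Hes5, Bmpr1b, Ptch1, Gli3 and Smo, fell.

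Metabolic and secreted genes gave smaller groups. Of 17 tested genes of hypoxia and glycolysis 7 rose and 2, Bnip3 and Pdk1, fell in members, and beyond low-UMI droplets 5 rose and 0 fell. In 6-marker droplets 6 of 14 rose and Pdk1 fell, and beyond low-UMI droplets Ldha, Ldhb, Gapdh and Tpi1 rose and Vegfa fell. Ldha, lactate dehydrogenase A, rose in members (1.22 ± 0.26, edgeR, adjusted p = 0.00308) and beyond low-UMI droplets in 6-marker droplets (1.08 ± 0.30, edgeR, adjusted p = 0.01, and 0.0623 without control replicate 4). Low-UMI droplets held 126 to 141 CPM of it in controls and 140 to 244 CPM in tumors. Of 16 cholesterol synthesis genes 4 rose in members and 12 were not called, and Sqle, Msmo1 and Nsdhl rose beyond low-UMI droplets. Of all 9845 genes, 19.9% were called higher in members and 10.2% beyond low-UMI droplets. The Sqle call in members was lost without control replicate 1, 2 or 4 or tumor replicate 1, 2, 3 or 5 (edgeR, adjusted p = 0.0501 to 0.157), and that beyond low-UMI droplets without control replicate 4 (edgeR, adjusted p = 0.0672). In 6-marker droplets 1 of 12, Idi1, rose, and 0 of 12 were called beyond low-UMI droplets. Among matrix and secreted genes 10 of 15 rose and Nlgn1 fell in members. In 6-marker droplets Cspg5 rose and Nlgn1 fell, of 9, near the 14.8% higher and 13.2% lower of all genes. Beyond low-UMI droplets 4 of 15 rose and Vcan fell in members, and of 9 in 6-marker droplets Sparcl1 rose and Bcan fell. Of all genes 10.2% rose and 12.1% fell in the former, and 10.3% rose and 14.8% fell in the latter.

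Of 13 tested cytokine and ligand genes 10 rose in members, including Csf1 and Il33, and in 6-marker droplets Csf1, Cxcl14, Fgf1 and Angpt1 rose of 7. Beyond low-UMI droplets Cxcl14, Il33 and Il18 rose and Cxcl12 and Tgfb1 fell in members, and 0 rose in 6-marker droplets. Csf1, Ccl3, Ccl4, Il18 and Tgfb1 also rose in microglia. Vegfa, the vessel growth factor, was at 191, 109, 128 and 145 CPM in 6-marker droplets of controls and 72.2, 239, 452, 38.4 and 87.5 CPM in those of tumors, with no call between them (0.39 ± 0.54, edgeR, adjusted p = 0.638). It was called higher in members, where the groups overlapped (1.24 ± 0.43, edgeR, adjusted p = 0.0345, lost without control replicate 2, 3 or 4 or tumor replicate 3 at 0.0714 to 0.13), and lower in 6-marker droplets beyond low-UMI droplets (-1.76 ± 0.46, edgeR, adjusted p = 0.00745).

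The genes with the smallest p in members were led by Sdc4, a heparan sulfate proteoglycan of the cell surface. It was at 33.7 to 36.7 CPM in control members and 553, 756, 384, 604 and 494 CPM in tumor members (log2 difference 3.98 ± 0.26, edgeR, adjusted p = 8.67e-06). Htra1, a secreted serine protease, was at 49.4 to 60.9 CPM and at 460, 457, 713, 834 and 585 CPM (3.55 ± 0.26, edgeR, adjusted p = 8.67e-06). Clu, the extracellular chaperone clusterin, was at 475 to 548 CPM and at 5629, 3449, 6166, 7850 and 4725 CPM (3.49 ± 0.27, edgeR, adjusted p = 1.21e-05). These 3 genes were chosen by smallest p, so the lack of overlap between their groups adds nothing to the test. The share of all genes without overlap is not given here, and 39.2% of the 9845 tested were called. Beyond low-UMI droplets Sdc4, Htra1 and Clu rose in members and were not called in 6-marker droplets (edgeR, adjusted p = 0.835, 0.289 and 0.11). The other genes chosen by smallest p that rose were C4b, Mgst1, Nfkbia, Nxn, Gadd45g, Dlk1, Gpr37l1, Atp6v0e, F3 and Prdx6.

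Neuron genes were lower in tumor members. Of 10 neuron genes 9 fell in members, 9 fell in 6-marker droplets, and 9 and 8 fell beyond low-UMI droplets. Snap25, a protein of synaptic vesicle fusion, was at 1202 to 1416 CPM in control members, below the 1465 to 1821 CPM of low-UMI droplets, and at 295, 113, 116, 2.12 and 70.3 CPM in tumor members. It fell by 3.45 ± 0.73 on the log2 scale (edgeR, adjusted p = 0.00256). The genes chosen by smallest p that fell were Nme7, Fabp3, Chgb, Rab3a, Wasf1, Atp1b1, Chn1, Rab3b, Cyfip2, Ppp3ca, Atp2b2, Ckmt1 and Got1, among them the vesicle genes Rab3a, Rab3b and Chgb.

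Nme7, a nucleoside diphosphate kinase family member of centrosomes and cilia, was at 835, 615, 698 and 639 CPM in control members and 43.0, 56.4, 34.4, 16.3 and 25.0 CPM in tumor members, and it fell by 4.38 ± 0.31 on the log2 scale (edgeR, adjusted p = 8.67e-06). It also differed in low-UMI droplets and in microglia, with 843 to 1073 CPM against 14.5 to 70.2 CPM in the former and means of 529 and 13.3 CPM in the latter (log2 difference -4.87 in microglia, edgeR, adjusted p = 2.45e-05). Beyond low-UMI droplets the difference was 0.32 ± 0.25 (edgeR, adjusted p = 0.376). Low-UMI droplets differed in the same direction for Rab3a, with means of 551 CPM in controls and 122 CPM in tumors, for Chgb (486 and 90.0 CPM) and for Ppp3ca (1852 and 411 CPM). Against microglia the changes of Nme7, Rab3a, Chgb and Ppp3ca in members were not called (edgeR, adjusted p = 0.109, 0.821, 0.786 and 0.128). Fabp3 and Got1 fell more in members than in microglia (-1.49 and -1.38, edgeR, adjusted p = 0.00366 and 0.000219), and the rest of those named were not called. Beyond low-UMI droplets Fabp3, Chn1, Ckmt1 and Got1 fell in members (edgeR, adjusted p = 0.0219 to 0.0445), and each call was lost without any of several mice.

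Genes linked to the fusion in ependymoma were read in members because a fusion-bearing cell with no captured transgene UMI would not be removed by the rule. Of 8 tested of 13, 6 rose and L1cam fell in members, and beyond low-UMI droplets 0 rose and L1cam fell. A gene at 0 UMIs in control members, such as H19, can be tested only through the tumors, so the count of rises is a description. Igf2, a growth factor, was at 33.7 to 41.5 CPM in control members and 99.7, 564, 197, 1151 and 640 CPM in tumor members, below the 76.4, 1134, 326, 1933 and 744 CPM of low-UMI droplets in 4 of 5 tumors. H19, an imprinted noncoding RNA, had 0 UMIs in the members of all 4 controls, where 3 UMIs would correspond to 3.20 to 25.3 CPM, and was at 9.77, 265, 65.6, 174 and 151 CPM in tumor members. Intervals and floors of this kind cover counting error only.

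Droplets that met the marker and Malat1 limits but held a UMI of luciferase, IRES or the fusion numbered 21, 14, 15, 480 and 232 in the tumors and 0 in the controls. Their median UMI counts were 2936, 6594, 4194, 6091 and 4322, above those of the members of the same tumor in all 5 mice. Their held-out astrocyte genes summed to 74427, 40977, 41059, 61618 and 43246 CPM, below the members of the same tumor in all 5 mice. Their fusion-linked genes summed to 1746, 6028, 6644, 7058 and 3384 CPM, above the members at 704, 1671, 892, 2742 and 2080 CPM in all 5. Low-UMI droplets of the tumors held 360, 3367, 1185, 5200 and 1905 CPM of the latter. Droplets that met those limits without such a UMI but held Mki67 or Top2a numbered 7, 16, 7, 40 and 235 in tumors. In controls they numbered 0, 5, 3 and 3. Whether members without a transgene UMI include tumor cells was not tested. The TdTomato reporter of the controls had a UMI in 4.76, 7.72, 9.58 and 25.8% of their members and in 4.51, 7.07, 7.28 and 16.9% of their other kept droplets.

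The tumor-control change in members was also set against that in microglia and in endothelial cells of the same mice, found by marker rules of the same kind. Microglia numbered 184, 215, 180 and 179 in controls and 317, 1085, 1361, 1197 and 527 in tumors, and endothelial cells 34, 37, 23 and 25 and 137, 198, 284, 173 and 181. The marker rules chose these droplets, and in controls nearly all also met the rule of another cell type, which left 11, 0, 2 and 3 microglia and 1, 0, 0 and 0 endothelial cells outside such rules. In tumors 220 to 1253 microglia and 105 to 261 endothelial cells remained. The control values of all 3 classes thus come from droplets with RNA of other cell types. With mouse as a term, 9.28% of 10844 genes were called against microglia (4.11% higher, 5.16% lower in members) and 3.16% of 9758 against endothelial cells (1.51% higher, 1.65% lower). With another scaling, the relative log expression of edgeR, the split against endothelial cells became 184 higher and 119 lower in place of 147 and 161, and the median of all genes moved from -0.06 to 0.04.

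Held-out astrocyte genes changed more in members than in microglia for 37 of 49 genes tested, and more than in endothelial cells for 24 of 49, with 0 lower in either. Members were chosen by astrocyte markers, and control members lacked the wider astrocyte profile. Droplet content and cell state therefore cannot be told apart in these counts or in the named gene differences that follow. Mt1 rose in microglia as well, from 630, 703, 746 and 667 CPM to 1477, 1347, 1038, 565 and 1628 CPM (log2 difference 1.29, edgeR, adjusted p = 0.00228), with tumor replicate 4 below the controls. Its change was larger in members by 1.60 ± 0.20 on the log2 scale (edgeR, adjusted p = 3.16e-05). Against endothelial cells the excess was 2.49 ± 0.37 (edgeR, adjusted p = 0.00127). Mt3 was at 533 to 730 CPM in control microglia and 359 to 656 CPM in tumor microglia, and its change was larger in members by 2.04 ± 0.23 (edgeR, adjusted p = 1.57e-05). Serpina3n changed more in members than in microglia by 3.04 ± 0.71 (edgeR, adjusted p = 0.00786), with tumor microglia at 1.45 to 26.5 CPM. As above, Serpina3n could pass the filter through the tumors alone, so this value is a description. Of 11 pan-reactive genes tested against microglia, Serpina3n and Gfap alone changed more in members and 9 were not called, and all 5 tested in microglia themselves rose, where 46.1% of 9094 genes were called (24.0% higher). Against endothelial cells 1 of 11, Vim, changed more in members.

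Interferon and antigen presentation genes rose in microglia in all 16 cases tested, and in endothelial cells 4 of 16 rose, where 24.3% of 5953 genes were called (12.6% higher). Of 17 tested, 1 changed more in members than in microglia and 0 less, with a median difference of 0.09 against -0.05 for all genes. Against endothelial cells 3 of 17, Isg15, Ifitm3 and Irf9, changed more in members and 0 less. Of 18 immediate early genes 0 changed more and 3 less in members than in microglia.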

How the data were processed

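The deposited files hold UMI counts per gene and barcode for each of 9 libraries, without normalization by the authors; per the labels they were made with Cell Ranger 7 on mm10 and analyzed in Scanpy 1.8.2, while the matrix headers name Cell Ranger 6.1.2. Tumor (n = 5) and control (n = 4) mice were grouped by genotype, and the mouse was the replicate. Between pairs of control mice, chi-square per degree of freedom over member counts was 1.30 to 1.84, close to counting noise. Between pairs of tumor mice it was 6.34 to 27.3. The controls thus varied little beyond counting, while the fit used the same dispersion for both groups. The cause of this unlike spread was not tested. Whether libraries were prepared in batches was not given in the sources used here. Members and gene lists were chosen with earlier results of these data known. In control replicate 4 the feature list had 32287 lines for 32289 matrix entries. All genes and added sequences of that library were therefore read by the order of the other libraries. Its barcodes could not be matched, so sharing was checked among the other 8 libraries. Genes that share reads with near-identical copies, such as the class I heavy chains and hemoglobins, are uncertain.

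UMI counts of members were summed per mouse. Genes were tested with edgeR 4.0.16 (quasi-likelihood test, TMM scaling, filterByExpr, Benjamini-Hochberg adjustment over all genes tested, threshold 0.05), leaving out groups of under 20 droplets in a mouse. Differences from microglia, endothelial cells and low-UMI droplets were interaction terms with mouse in the model. Named genes were list members (some are not reported here), and the 12 with smallest p in each direction that kept their direction without each mouse, over all genes and over those more abundant in members than in other kept droplets. CPM used all UMIs of the droplets summed. Shares were compared by a two-sided exact permutation test over the 126 splits. The fits were tested on simulated data. Alternatives were other marker numbers and limits on droplets, DESeq2 1.42.0, limma 3.58.1 (voom), other scaling and filters, thinning, a replicate block, and each mouse left out. The 6-marker set and the low-UMI comparison were added after seeing the data. Member UMIs per mouse ranged from 118625 to 1521152, which limits precision most in control replicate 1 and tumor replicate 2.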

Additional observations from a re-analysis of the deposited data

Results flagged for a closer look

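In 11 of 154 groups of mice examined gene by gene, 1 mouse lay far from the others by Dixon's criterion, where chance gives about 1 in 20. Among control members, replicate 2 was high for Htra1 at 60.9 CPM, and replicate 3 was high for Slc6a11 at 162 CPM, Mt1 at 1186 CPM, Sparcl1 at 1210 CPM and Fabp7 at 162 CPM. Among tumor members, replicate 3 was high for Glul at 1995 CPM and Vegfa at 149 CPM and low for Serpina3n at 36.1 CPM. Tumor replicate 4 was high for Prdx6 at 2355 CPM and H2-D1 at 784 CPM, and tumor replicate 2, with 44 members, was high for Hsp90aa1 at 1710 CPM.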

How the results depend on the processing

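Genes called between tumor and control members numbered 3860 of 9845 tested, and 1745 of 5461 with at least 5 markers (3 controls and 4 tumors left), 1710 of 6521 with a 10% mitochondrial limit (3 controls left), 5798 of 11862 without the Malat1 limit, 1463 of 5209 in 6-marker droplets, 1170 of 2393 after thinning to the smallest total (48.9% against 39.2%), and 3009 to 3822 without each mouse. Against microglia the 1006 calls became 525 with 5 markers, 437 with the 10% limit, 1527 without the Malat1 limit, 569 in 6-marker droplets and 548 to 1231 without each mouse, with 548, 609 and 589 without control replicate 2, 3 or 4. Against endothelial cells the 308 calls became 81 with 5 markers, 63 with 5000 barcodes, 547 without the Malat1 limit, 130 in 6-marker droplets, 484 with limma, 557 without a filter on low counts and 104 to 364 without each mouse, with 104, 168 and 179 without control replicate 2, 3 or 4. Against low-UMI droplets, 2197 calls became 1305 of 5209 in 6-marker droplets. Leaving out each mouse, added after seeing the data, gave 1177 to 2292 calls, with 1426, 1413 and 1177 without control replicate 2, 3 or 4, and 1984 without tumor replicate 3. In 6-marker droplets it gave 707 (without control replicate 4) to 1441. The calls of Sox2, Sox9, Hes5 and Pla2g7 in that comparison were each lost without any of several mice, that of Sparcl1 without control replicate 4, that of Junb without control replicate 2, and that of Sdc4 in members without control replicate 2. In 6-marker droplets, leaving out each mouse gave 951 (without control replicate 4) to 1546 calls. The difference in share, 3.24 points, was 1.14 to 4.50 without each mouse and 0.755 without the Malat1 limit (exact permutation test, p = 1). It was also not past the threshold with 3 of 8 markers (1.85), 6 of 8 markers and no Malat1 limit (2.09), 5 of 8 markers (2.80), 5000 barcodes (4.29) or at least 500 genes (3.64), at exact permutation p = 0.762, 0.222, 0.0635, 0.175 and 0.175. It was past the threshold after thinning to 1000 UMIs (3.54, exact permutation test, p = 0.0159) and with the 10% mitochondrial limit (4.54, exact permutation test, p = 0.0476). It was also past it with droplets meeting other cell type rules left out (3.67, p = 0.0159 by exact permutation) and over droplets outside the neuron rule (6.08, exact permutation test, p = 0.0476), but there controls held 1, 0, 0 and 0 members and 2 of 164, 0 of 15, 1 of 41 and 0 of 10, since nearly all control droplets meet the neuron rule. Of 1651 recomputed values for 76 genes, 1551 kept direction and side of the threshold, 92 lost the call, 6 gained it, and Slc6a11 (-0.52) and Hes5 (-0.52) reversed in 6-marker droplets. The cause of these shifts was not tested. Replicate numbers shared by the groups did not pair the mice (correlations of 0.06, 0.05, -0.02 and -0.03), and a replicate block gave 3113 calls. With droplets of other cell types left out, controls held 0 or 1 member each and no gene test could be made, and the endothelial comparison could not be made at the 10% mitochondrial limit. Control members and low-UMI droplets limit what can be read of control astrocytes.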
